A study of Mus musculus with 8 samples.

Results

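The genes described here are those that the deposited expression table places on mouse chromosome 14 and on no other chromosome, with a mean of at least 5 FPKM over the 8 libraries. FPKM, which counts sequenced fragments relative to transcript length and library size, is an expression level. There were 322 such genes, out of 8294 gene symbols at this level in the whole table and out of 1579 symbols on chromosome 14. Another 1257 chromosome 14 symbols fell under the minimum, of which 702 were listed at 0 in all libraries. The genes were picked because earlier work on the same values had seen chromosome 14 transcripts lower in a pair of libraries, so that lowering is given below as a description, without a test.

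The study measured polyadenylated RNA by RNA sequencing in CJ9 cells, a mouse embryonic stem (ES) cell line of the 129S4/SvJae strain. It compared unedited cells (WT, 2 libraries), cells in which the antisense long noncoding RNA Evx1as had been knocked out by CRISPR (Evx1as KO, 3 libraries) and cells in which the homeobox gene EVX1 had been knocked out by CRISPR (EVX1 KO, 3 libraries). All groups had been kept for 4 days in serum-containing medium without leukemia inhibitory factor (LIF), the cytokine that holds mouse ES cells undifferentiated. The labels do not say whether the libraries of a group came from separate clones, cultures or passages, so the p-values below measure only the spread between these libraries, which may be technical.

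Mouse ES cells in culture are known to gain and lose whole chromosomes or parts of them, and cells with such changes can take over a culture. The transcript level of many genes follows the number of copies of the chromosome that carries them, so that a run of neighbouring genes of unrelated function shifts together, while genes under strong feedback or cell-type control may not follow. DNA copy number was not analysed here, and a shift in transcript level alone does not give it. In bulk RNA a lower level in every cell and a smaller share of cells that make the transcript cannot be told apart.

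Promoters of 5 genes mark the places along the chromosome to which the results below return. Mmp14 is a gene with a large gap between the lowered libraries and the others; Tdrd3 is the last gene of the lowered run and Mzt1 the first gene beyond it that has both a standard name and a promoter in the table used; Ndrg2 lies inside the run and was not lowered; Zic5 lies near the far end and was not lowered. The sequences are RefSeq promoters (build GRCm38.p6, 250 bases before to 50 bases after the gene's start), written 5′ to 3′ on the strand of the gene. Capitals mark GGGCGG on either strand, the letters of the GC box that Sp1-family factors bind, or TATAAA on either strand, the letters of a TATA box; no match of one motif overlaps a match of the other.
Mmp14 (chr14:54431348-54431647, plus strand): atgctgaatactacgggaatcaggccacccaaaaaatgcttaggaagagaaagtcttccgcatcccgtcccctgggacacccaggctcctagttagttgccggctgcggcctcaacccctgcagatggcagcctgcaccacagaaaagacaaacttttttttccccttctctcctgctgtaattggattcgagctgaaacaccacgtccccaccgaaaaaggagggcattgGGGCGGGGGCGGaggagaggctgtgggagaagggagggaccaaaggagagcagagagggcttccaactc
Tdrd3 (chr14:87416333-87416632, plus strand): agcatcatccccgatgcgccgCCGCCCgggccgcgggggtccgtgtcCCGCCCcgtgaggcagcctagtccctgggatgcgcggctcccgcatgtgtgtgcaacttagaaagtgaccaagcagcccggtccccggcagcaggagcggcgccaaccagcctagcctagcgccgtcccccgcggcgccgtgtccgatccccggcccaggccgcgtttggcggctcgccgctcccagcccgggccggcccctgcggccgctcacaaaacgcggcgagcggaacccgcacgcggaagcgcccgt
Mzt1 (chr14:99046087-99046386, minus strand): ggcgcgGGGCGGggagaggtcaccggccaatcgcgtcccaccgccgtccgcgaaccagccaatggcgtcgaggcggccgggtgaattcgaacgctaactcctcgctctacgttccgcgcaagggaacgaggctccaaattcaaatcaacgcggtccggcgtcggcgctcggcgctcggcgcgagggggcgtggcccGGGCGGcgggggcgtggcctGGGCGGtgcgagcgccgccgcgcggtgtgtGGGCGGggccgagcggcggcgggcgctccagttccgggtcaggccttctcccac
Ndrg2 (chr14:51913955-51914254, minus strand): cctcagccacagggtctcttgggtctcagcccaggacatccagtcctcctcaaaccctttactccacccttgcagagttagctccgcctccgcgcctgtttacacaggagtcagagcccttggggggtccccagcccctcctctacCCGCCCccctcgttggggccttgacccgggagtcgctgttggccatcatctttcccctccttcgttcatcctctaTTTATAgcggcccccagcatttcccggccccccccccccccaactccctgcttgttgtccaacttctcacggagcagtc
Zic5 (chr14:122465609-122465908, minus strand): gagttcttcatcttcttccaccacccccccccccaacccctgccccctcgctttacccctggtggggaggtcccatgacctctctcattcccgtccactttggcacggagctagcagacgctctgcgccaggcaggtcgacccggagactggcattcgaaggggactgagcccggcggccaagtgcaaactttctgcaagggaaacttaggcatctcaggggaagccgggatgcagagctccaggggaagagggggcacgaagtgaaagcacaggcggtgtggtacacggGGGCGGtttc
The Mmp14 and Tdrd3 promoters each held 2 GGGCGG matches, that of Mzt1 4, and those of Ndrg2 and Zic5 1 each. TATAAA was found in the Ndrg2 promoter alone of these 5, where it stood as its reverse complement. Of all 27025 promoters of the same length, 35.9% held GGGCGG and 14.2% held TATAAA. CpG content ranged from 10 CpG dinucleotides in the Mmp14 promoter and 11 in that of Ndrg2 to 43 in that of Tdrd3 and 51 in that of Mzt1. Only 206 of the 322 genes (64%) matched a promoter by symbol, so promoters were not compared between sets of genes.

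Positions given in Mb below are those of the deposited table. They are not GRCm38 coordinates: of 279 genes matched by symbol to the GENCODE annotation of GRCm38 chromosome 14, 4 overlapped in position, and GRCm38 starts lay a median of 0.62 Mb lower. The submitters' processing notes name both mm9 and mm10.

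Across the series, summed FPKM ranged from 531523 to 587798, and 12244 to 12442 genes per library had 1 FPKM or more. Read totals were not used here; the smallest nonzero values put the depth of the other libraries at 0.863 to 1.19 times that of WT 1. Evx1as (listed as 5730457N03Rik) was at 5.36 and 6.75 FPKM in WT, 0.0549, 0.104 and 0.0485 in Evx1as KO and 5.01, 8.81 and 7.39 in EVX1 KO, which matches the labels. Evx1 messenger RNA was at 22 and 31.2 FPKM in WT and at 26.3, 20.8 and 31.7 in EVX1 KO, so its level does not check the EVX1 KO label; it was 2.45, 3.84 and 0.542 in Evx1as KO. The pluripotency gene Pou5f1 was at 301.7 to 458.4 FPKM. Of 9 marker lists, only the primed epiblast and the Y-linked list put Evx1as KO 2 and 3 both outside the range of the other 6 libraries. Their summed FPKM was 322 and 342 against 119 to 321 for the 5 primed epiblast genes (which include the chromosome 14 gene Otx2), and 6.39 and 5.56 against 0 to 4.95 for the 4 Y-linked genes, of which Kdm5d was at 0 in all. The summed primitive streak markers were at 444 and 508 in WT, 108, 220 and 82.7 in Evx1as KO and 482 to 574 in EVX1 KO, and the summed mesoderm markers at 50 to 68.8 in WT, 2.44 to 5.76 in Evx1as KO and 24.6 to 60.1 in EVX1 KO. The summed fibroblast or feeder markers were at 134 and 224 in WT, 34.7 to 48.7 in Evx1as KO and 52.5 to 97.1 in EVX1 KO, and the summed definitive endoderm markers at 14.6 and 29.5 in WT, 1.21 to 6.97 in Evx1as KO and 44.8 to 69.5 in EVX1 KO. The part of these cell types in the chromosome 14 values was not tested.

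Chromosome 14 transcripts were lower in Evx1as KO 2 and 3 than in every other library, including Evx1as KO 1 of their own group. Each gene's log2(FPKM + 1) was taken relative to its mean over the 8 libraries. The median over the 322 genes was then -0.36 in Evx1as KO 2 and -0.34 in Evx1as KO 3, and 91% and 87.3% of the genes lay below their mean. The other 6 libraries had medians of 0.05 (WT 1), -0.03 (WT 2), 0.13 (Evx1as KO 1), 0.17 (EVX1 KO 1), 0.18 (EVX1 KO 2) and 0.16 (EVX1 KO 3). The 7945 genes of the other 19 chromosomes at the same expression level had medians between -0.01 and 0.01 in every library. Taken chromosome by chromosome, the others stayed between -0.10 and 0.16, except chromosome 8, at -0.38 in EVX1 KO 1 and -0.30 in EVX1 KO 2. The chromosome 14 genes made up 3.00% and 2.85% of all FPKM in WT, 3.16%, 2.20% and 2.17% in Evx1as KO 1, 2 and 3, and 3.29%, 3.30% and 3.25% in EVX1 KO.

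**Figure D1:**
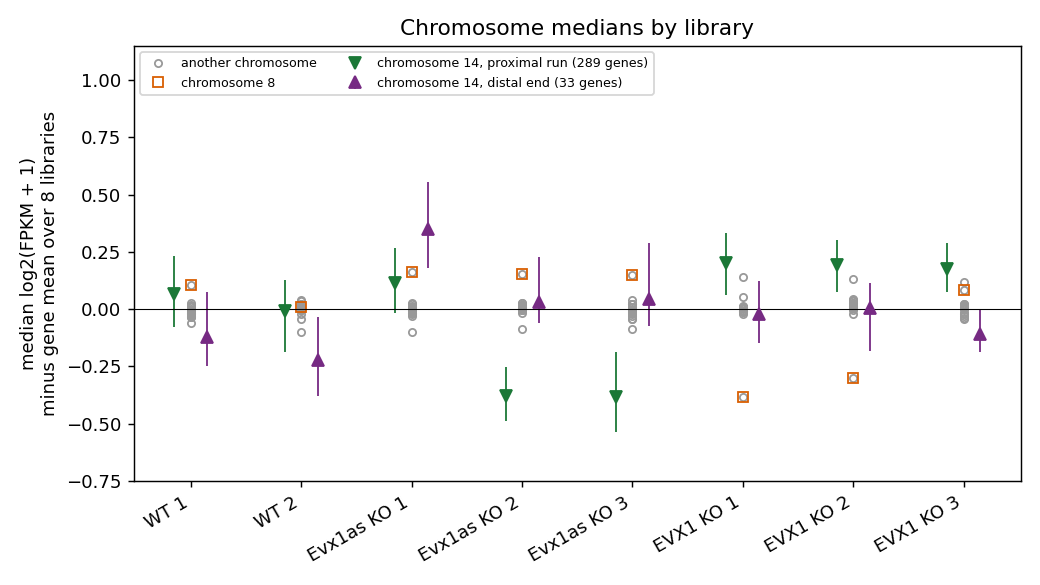
Median log2(FPKM + 1) minus the gene's mean over 8 libraries (vertical axis, log2 units), by library (horizontal axis); triangles are the proximal run and distal end of chromosome 14 with their quartiles as bars, circles are the other chromosomes and orange squares mark chromosome 8. The proximal run stands at -0.38 in both Evx1as KO 2 and Evx1as KO 3, below every other chromosome there, and the distal end stands highest in Evx1as KO 1, at 0.35.

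Measured against WT, the lowering lay in a long run that starts at the centromeric end and ends before the last part of the chromosome. A search for the single division that best fits the values of Evx1as KO 2 placed it between Tdrd3 (87.88 Mb), a Tudor-domain reader of methylated arginine, and the predicted gene Gm5088 (90.30 Mb). The division was chosen from these values, so no test goes with it; it leaves 289 genes in a proximal run and 33 genes in a distal end. The same division was found when the values of Evx1as KO 2 or of Evx1as KO 3 were taken against the WT mean instead, and it removed 9.3% and 7.36% of the summed absolute deviation. Evx1as KO 1 against the WT mean divided 1 gene further on (3.8% removed), and in the 3 EVX1 KO libraries and between the WT libraries the best division removed at most 1.27%. On values relative to the gene mean the same division removed 15.3% in Evx1as KO 2 and 8.85% in Evx1as KO 3, but also 8.37% in EVX1 KO 3, 3.8% in Evx1as KO 1, 3.11% in EVX1 KO 1 and 2.79% in WT 1. In WT 2 and EVX1 KO 2 it lay further on, at 3.44% and 4.27%. These values share the gene mean, which includes Evx1as KO 2 and 3, so the libraries are not independent of each other.

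In the proximal run the median gene was 0.40 log2 units below the WT mean in Evx1as KO 2 and 0.41 below in Evx1as KO 3, ratios of 0.757 and 0.75 on the FPKM + 1 scale. Evx1as KO 1 was 0.10 above the WT mean there, and EVX1 KO 1, 2 and 3 were 0.17, 0.17 and 0.14 above it. WT 2 was 0.10 below WT 1, which is the only measure of spread between unedited libraries. Against Evx1as KO 1, the library of the same genotype, the ratios were 0.709 and 0.711, and 279 of 289 genes were lower in Evx1as KO 2 and 279 in Evx1as KO 3. Evx1as KO 2 and 3 differed from each other by a median of 0.003. Genes of the other 19 chromosomes differed by medians of 0.004 and 0.003 between these libraries and Evx1as KO 1.

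The distal end was not below WT but was below Evx1as KO 1, by less than the proximal run. Its median gene was 0.20 and 0.25 above the WT mean in Evx1as KO 2 and 3, near the EVX1 KO libraries (0.15, 0.23 and 0.11). In Evx1as KO 1 it was 0.57 above the WT mean. Relative to Evx1as KO 1, distal genes were therefore still lower, by medians of -0.36 in Evx1as KO 2 (30 of 33 genes) and -0.28 in Evx1as KO 3 (31 of 33 genes), against -0.50 and -0.49 in the proximal run. When differences from Evx1as KO 1 were searched for a division, it moved to 76.5 Mb for Evx1as KO 2 and to between Klf5 (99.71 Mb) and the next gene for Evx1as KO 3, with weaker fits (3.41% and 5.51% removed). Whether the distal genes take part in the lowering thus depends on the library they are set against.

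In windows of 10 Mb the lowering reached along the whole proximal run. Each of the 8 windows from 0 to 80 Mb, with 8 to 82 genes apiece, had its medians in Evx1as KO 2 and 3 below those of all other libraries. Relative to the gene means these medians ran from -0.51 to -0.33 in Evx1as KO 2 and from -0.46 to -0.30 in Evx1as KO 3. Relative to the WT mean they varied more, from -0.53 (0 to 10 Mb) to -0.24 (10 to 20 Mb) in Evx1as KO 2 and from -0.51 (60 to 70 Mb) to -0.19 (10 to 20 Mb) in Evx1as KO 3. The windows from 0 to 10 Mb (19 genes) and 10 to 20 Mb (8 genes) are thin. Between 80 and 90 Mb there were only 3 genes, and all were lower in both libraries than in the other 6. Beyond 90 Mb no window showed this; its 4 windows held 5, 11, 4 and 13 genes, too few for a firm median.

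**Figure D2:**
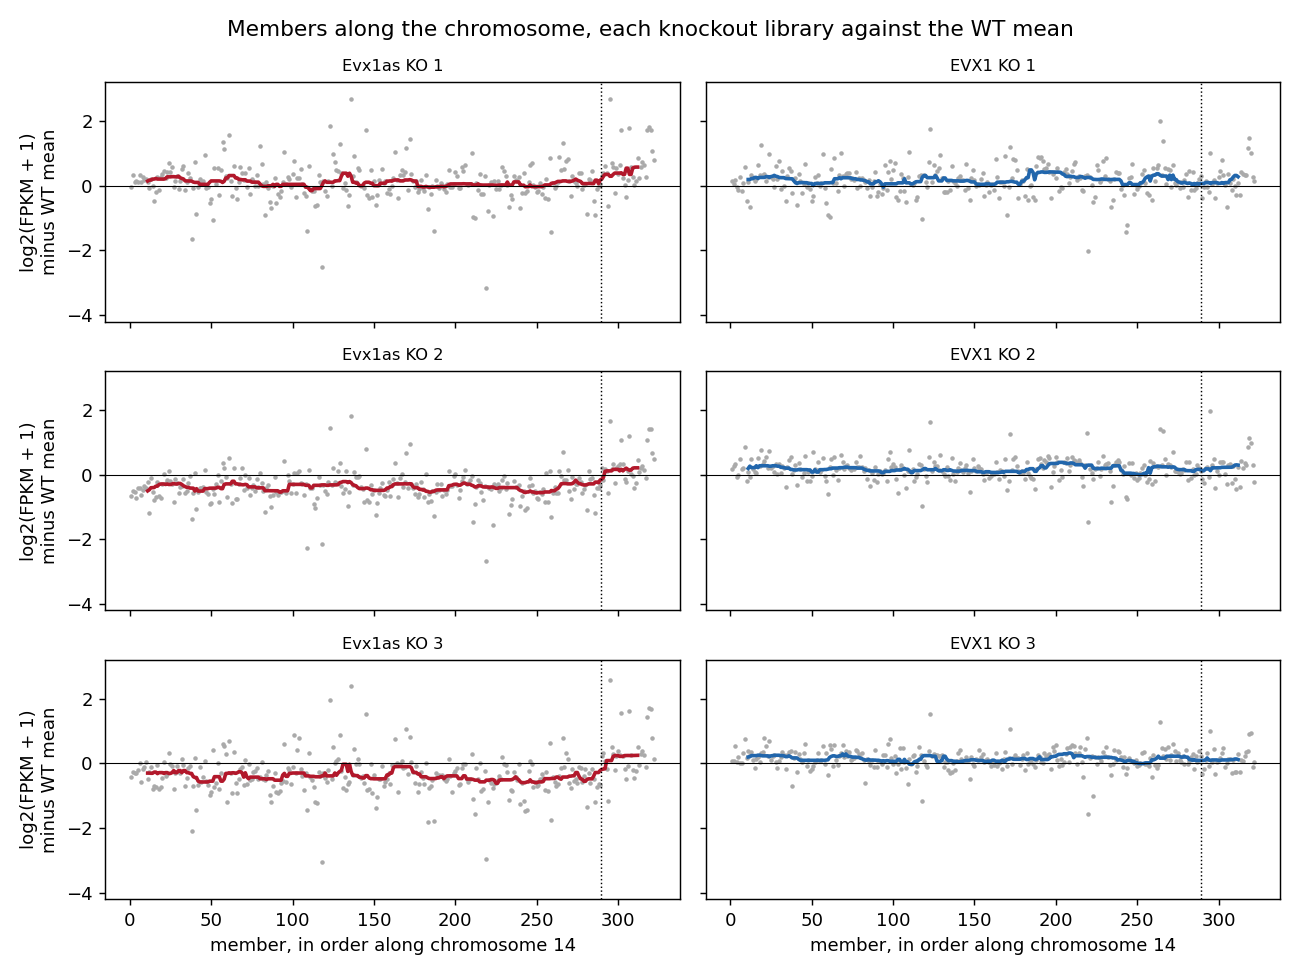
Each point is a gene, placed by its order along chromosome 14 (horizontal axis), with its log2(FPKM + 1) minus the WT mean (vertical axis, log2 units) in each knockout library; the line is a running median over neighbouring genes and the dotted line is the division after Tdrd3. The running median lies below 0 over nearly the whole proximal run in Evx1as KO 2 and 3, above 0 in the EVX1 KO libraries, and rises beyond the division in all 3 Evx1as KO libraries.

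The genes around the division show how sparse this stretch is. Sugt1 (80.01 Mb), a co-chaperone of mitosis and immunity, was 0.42 and 0.72 below the WT mean in Evx1as KO 2 and 3 and 0.09 below in Evx1as KO 1. The next genes of the set were the formin Diap3 (87.30 Mb), at 0.42 and 0.64 below, and Tdrd3, at 0.32 and 0.66 below. In FPKM, Tdrd3 was at 6.6 and 6.78 in WT, 7.05, 5.16 and 3.87 in Evx1as KO 1, 2 and 3, and 8.49, 7.25 and 8.03 in EVX1 KO, so Evx1as KO 2 and 3 were the lowest libraries. Gm5088 read 8.82 and 9.73 in WT, 11.6, 10.9 and 11.2 in Evx1as KO and 6.94, 8.35 and 7.25 in EVX1 KO, with all 3 Evx1as KO libraries the highest. A long gap separates it from the neighbours Mzt1, Bora and Dis3 (99.44 to 99.49 Mb). Mzt1, a component of the gamma-tubulin ring complex, was at 8.8 and 10.5 FPKM in WT, 12.9, 8.47 and 12.2 in Evx1as KO and 9.31, 7.83 and 8.37 in EVX1 KO. Its Evx1as KO 2 and 3 values lay on either side of the WT libraries.

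By their medians, chromosome 14 genes below the 5 FPKM minimum showed a smaller lowering on the same side of the division. For 137 genes with means from 1 to 5 FPKM in the proximal stretch, the median was -0.20 in Evx1as KO 2 and -0.14 in Evx1as KO 3 against the WT mean, and for 17 such genes in the distal stretch it was 0.09 in each. Counted gene by gene, the sides hardly differed in the share with Evx1as KO 2 and 3 both below every other library. It was 25.55% in the proximal stretch (35 of 137) and 23.53% in the distal stretch (4 of 17). Both libraries lay at or above the median of the others in 12 proximal genes (8.76%) and 4 distal genes (23.53%). The shares on the other chromosomes were not computed at this expression level, so no lowering is read from these counts. The added 1 FPKM shrinks log2 differences of low genes. Within the proximal run itself, the difference of Evx1as KO 2 from WT was -0.32 in the 96 genes of lowest mean FPKM, -0.39 in the 96 in the middle and -0.47 in the 97 highest, and for Evx1as KO 3 it was -0.38, -0.41 and -0.43. Nearest the minimum, Slc25a37 (mean 5.01 FPKM), the transcript NM_001256886 (5.06) and Thtpa (5.35) lay just inside, and Msra, Cab39l and Wdfy2 (4.93 each) just outside.

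Counted gene by gene, 191 of the 322 genes (59.3%) were lower in both Evx1as KO 2 and Evx1as KO 3 than in each of the other 6 libraries. On the other chromosomes 5.4% of genes met the same rule. The proximal run held 188 of the 191. In 116 of the 191 genes Evx1as KO 1 lay within the range of the WT and EVX1 KO libraries, in 57 it lay below that range and in 18 above it. Of the 429 genes that met the rule on the other chromosomes, Evx1as KO 1 lay within that range in 172, below it in 253 and above it in 4. No chromosome 14 gene had both libraries above the other 6, against 5.92% elsewhere. Both libraries were below Evx1as KO 1 in 300 of 322 genes (93.2%), against 30.9% elsewhere. Another 106 genes fell between the rules, and 25 genes (7.76%) were not lowered, meaning that both libraries lay at or above the median of the other 6; elsewhere 40% of genes met that rule.

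The widest gaps below the other libraries were spread along the run, from Kctd6 (9.05 Mb) to Bin3 (70.52 Mb). Vdac2 (22.66 Mb), a channel of the outer mitochondrial membrane, was at 154 and 150 FPKM in WT, 149, 99.3 and 95.3 in Evx1as KO 1, 2 and 3, and 163, 160 and 163 in EVX1 KO. The other 6 libraries lay close together, and Evx1as KO 2 and 3 stood far below all of them. Arf4 (27.47 Mb), a small GTPase of Golgi traffic, was at 57.9 and 55.7 FPKM in WT, 53.6, 33.1 and 37 in Evx1as KO and 60.6, 63.5 and 61.2 in EVX1 KO. Rabggta (56.34 Mb), a subunit of the enzyme that attaches lipid anchors to Rab proteins, was at 29.2 and 31.4 in WT, 29.4, 19.7 and 17.4 in Evx1as KO and 30.2, 29.2 and 31 in EVX1 KO. For these genes Evx1as KO 1 was level with or just under WT.

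Other genes with wide gaps differed in where Evx1as KO 1 stood. Mmp14 (55.06 Mb), a membrane-anchored matrix protease whose promoter is printed above, was at 76.1 and 76.4 FPKM in WT, 50.6, 31.3 and 28.8 in Evx1as KO and 75.4, 83.2 and 84.2 in EVX1 KO. Lrp10 (55.09 Mb), a receptor of the low-density lipoprotein receptor family and a near neighbour of Mmp14, was at 59.8 and 52.6 in WT, 45.9, 30.2 and 26.8 in Evx1as KO and 57.9, 67.2 and 60.8 in EVX1 KO. In these neighbours Evx1as KO 1 was already below WT, and Evx1as KO 2 and 3 were lower again. Kctd6, a substrate adaptor of cullin 3 ubiquitin ligases, had the widest gap, with 21.7 and 22.6 FPKM in WT, 27, 13 and 12.9 in Evx1as KO and 54.7, 38.1 and 28.3 in EVX1 KO; its EVX1 KO libraries were the highest and spread widely. Psme2 (56.21 Mb), a subunit of the PA28 proteasome activator, was also highest in EVX1 KO, with 234 and 214 in WT, 219, 149 and 148 in Evx1as KO and 387, 329 and 272 in EVX1 KO. For Psme2, Evx1as KO 1 lay between the WT libraries, while for Kctd6 it lay above both. Psme2 has near-identical copies elsewhere in the genome, and no source used here says how the authors' counting divided such reads. Tnfrsf10b (70.18 Mb), a death receptor for TRAIL, Bin3, a BAR-domain protein, and Ube2e2 (19.57 Mb), a ubiquitin-conjugating enzyme, completed the 10 genes; their gaps on the log2 scale were -0.52, -0.52 and -0.53.

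**Figure D3:**
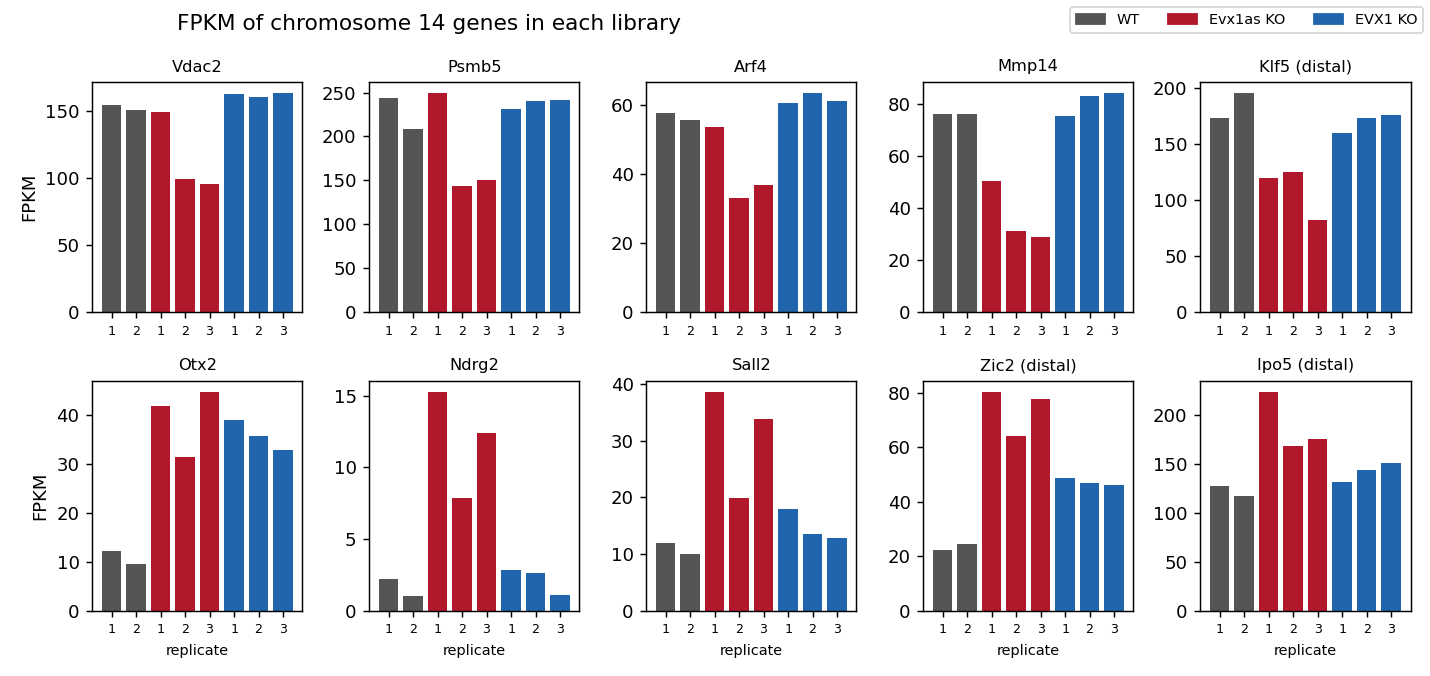
FPKM (vertical axes, from 0) of 10 chromosome 14 genes in each library (horizontal axes, replicate number; grey WT, red Evx1as KO, blue EVX1 KO), 1 bar per library. Vdac2, Psmb5 and Arf4 are low in Evx1as KO 2 and 3 only, Klf5 is low in all 3 Evx1as KO libraries, and Otx2, Ndrg2, Sall2, Zic2 and Ipo5 are above WT in all 3.

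Lists of genes by role, drawn up with earlier results of these data known, are given next with the number of their members in each class. Beside these counts, 59.3% of the whole set, 65.05% of the proximal run and 9.09% of the distal end were below all other libraries. The lists hold unequal numbers of distal genes. They were kept as drawn up, and some of their genes fit the named role loosely or not at all. Of 17 genes on a list for chromatin and transcription, 13 were lower in both libraries than in the other 6, 3 fell between and 1, the zinc-finger gene Zfp219, was not lowered. The 13 include Bin3, described above as a BAR-domain protein. Prmt5 (55.13 Mb), an arginine methyltransferase, was at 87.3 and 92.8 FPKM in WT, 95.2, 67.2 and 63.9 in Evx1as KO and 104, 102 and 104 in EVX1 KO. The deubiquitinase Bap1 and the RNA polymerase III subunit Polr3d were lower in the same pair, and the Elongator acetyltransferase subunit Elp3 fell between, at 41.8 and 32.8 in WT and 51.5, 35.8 and 36.5 in Evx1as KO. The median of this list against WT was -0.42 in Evx1as KO 2, -0.47 in Evx1as KO 3 and 0.00 in Evx1as KO 1.

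For proteasome, ubiquitin and protein folding, 12 of 19 genes were below all other libraries, 6 fell between and 1 was not lowered. Psmb5 (55.23 Mb), a catalytic subunit of the proteasome, was at 244 and 208 FPKM in WT, 249, 144 and 150 in Evx1as KO and 232, 240 and 242 in EVX1 KO. The ubiquitin-like modifier Nedd8 (56.29 Mb) was at 400 and 335 in WT, 326, 225 and 234 in Evx1as KO and 294, 331 and 315 in EVX1 KO. Psme1, the partner of Psme2 in PA28, was at 291 and 264 in WT, 306, 209 and 228 in Evx1as KO and 492, 389 and 310 in EVX1 KO. All 3 were lowest in Evx1as KO 2 and 3. Of those between, 3 (Uchl3, Dnajc3 and Ubac2) lie in the distal end.

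The cytoskeleton, adhesion and matrix list had 13 of 16 genes below all other libraries, 2 between and 1, the distal guanine nucleotide exchange factor Dock9, not lowered. Clu (66.59 Mb), an extracellular chaperone, was at 183 and 215 FPKM in WT, 126, 85.3 and 90 in Evx1as KO and 220, 215 and 194 in EVX1 KO. Vinculin (Vcl, 21.80 Mb), which links integrin adhesions to actin, was at 110 and 132 in WT, 129, 89.9 and 80.6 in Evx1as KO and 103, 115 and 125 in EVX1 KO. Vcl was lowest in Evx1as KO 2 and 3, with EVX1 KO 1 also under both WT libraries, while Clu was below WT in all 3 Evx1as KO libraries. For membrane traffic 9 of 10 genes were below all other libraries and the distal small GTPase Rap2a fell between. Tm9sf2, of the same list, was lowered although it lies in the distal end. Sec24c, a coat protein of vesicles leaving the endoplasmic reticulum, was at 69 and 61.4 in WT, 62, 43.1 and 40 in Evx1as KO and 75.7, 72 and 73.4 in EVX1 KO.

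The mitochondrion and metabolism list had 12 of 21 genes below all other libraries, with 7 between and 2, Pcca and Ndrg2, not lowered. Glud1 (35.14 Mb), the mitochondrial glutamate dehydrogenase, was at 130 and 122 FPKM in WT, 130, 85.6 and 85 in Evx1as KO and 115, 111 and 117 in EVX1 KO. Timm23, a core subunit of the inner membrane protein import channel, was at 182 and 205 in WT, 173, 132 and 126 in Evx1as KO and 160, 196 and 189 in EVX1 KO. Transketolase (Tkt), an enzyme of the pentose phosphate pathway, was higher in Evx1as KO 1 than elsewhere, at 217 and 196 in WT, 303, 192 and 203 in Evx1as KO and 273, 237 and 262 in EVX1 KO. Its Evx1as KO 2 and 3 values were level with WT yet well under Evx1as KO 1.

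The ribosome and translation list had 4 of 7 genes below all other libraries (Mrpl52, Abhd4, Dph3 and Oxnad1) and 3 between (Rps24, Rpl15 and Mrps16). Abhd4, Dph3 and Oxnad1 do not encode ribosomal proteins, so of the ribosomal protein genes listed only Mrpl52 was below all. Rps24 and Rpl15, proteins of the small and the large cytosolic ribosomal subunit, were among those between. Rps24 was at 1396 and 1271 FPKM in WT, 1946, 1318 and 1355 in Evx1as KO and 1695, 1755 and 1668 in EVX1 KO. As for Tkt, the pair matched WT but lay below Evx1as KO 1. Ribosomal protein genes have many processed copies, so their values are uncertain. Mrpl52, of the mitochondrial ribosome, was at 148 and 148 in WT, 164, 105 and 116 in Evx1as KO and 167, 169 and 141 in EVX1 KO and was lowered.

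For RNA processing and nuclear transport, 8 of 16 genes were below all other libraries, 7 fell between and 1, Ipo5, was not lowered. Hnrnpc and Pabpn1 lie inside the proximal run. Hnrnpc (52.71 Mb), a nuclear RNA-binding protein, was at 165 and 168 FPKM in WT, 180, 157 and 164 in Evx1as KO and 164, 177 and 177 in EVX1 KO. Pabpn1, the nuclear poly(A)-binding protein, was at 265 and 286 in WT, 323, 251 and 264 in Evx1as KO and 252, 277 and 266 in EVX1 KO. Their Evx1as KO 2 and 3 values lay close to the lowest other library, though for Pabpn1 both were well under Evx1as KO 1. The splicing-associated gene Acin1 was lowered by a small margin, at 134 and 129 in WT, 123, 112 and 107 in Evx1as KO and 116, 123 and 136 in EVX1 KO.

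Cell cycle, replication and repair genes split into 9 of 19 below all other libraries and 10 between, with none not lowered. Apex1 (51.55 Mb), a base excision repair endonuclease, was at 58.6 and 52.8 FPKM in WT, 52.9, 37.1 and 32.8 in Evx1as KO and 48.6, 56.6 and 51.5 in EVX1 KO. In the table Apex1 overlaps Tmem55b, a lysosomal membrane protein gene that was also lowered, and no source used here says whether counting used strand. Parp2, a poly(ADP-ribose) polymerase of DNA repair, was at 32.1 and 30.7 in WT, 44, 26.3 and 33 in Evx1as KO and 43.5, 38.2 and 37.8 in EVX1 KO. Cdca2, a mitotic regulator of protein phosphatase 1, was at 17.8 and 18.5 in WT, 21.9, 14.2 and 17.8 in Evx1as KO and 24.3, 24.3 and 23.7 in EVX1 KO. In both, Evx1as KO 3 reached the WT level and Evx1as KO 2 did not.

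Of 12 genes on the development list, 2 (Bmp4 and Ajuba) were below all other libraries, 6 fell between and 4 (Zic2, Zic5, Sall2 and Lmo7) were not lowered. Klf5, Zic2, Zic5, Lmo7 and Spry2 of this list lie in the distal end. Against the WT mean Lmo7 was at -0.252 and -0.216 in Evx1as KO 2 and 3. It met the rule for genes not lowered because EVX1 KO was lower still, at -0.378, -0.414 and -0.336. No difference between lists was tested. Bmp4 (47.01 Mb), a secreted ligand of mesoderm formation, was at 24.9 and 25.2 FPKM in WT, 8.87, 4.38 and 8.65 in Evx1as KO and 30.4, 27.4 and 15.6 in EVX1 KO. Gata4 (63.84 Mb), a zinc-finger factor of endoderm and heart, was at 16 and 6.74 in WT, 0.28, 0.795 and 0.496 in Evx1as KO and 13.6, 26.9 and 18.9 in EVX1 KO. For these genes the whole Evx1as KO group was low, and the proximal lowering cannot be read from them. Ajuba, a LIM-domain scaffold, was at 170 and 169 in WT, 179, 110 and 105 in Evx1as KO and 134, 151 and 174 in EVX1 KO. It was lowest in Evx1as KO 2 and 3, with EVX1 KO 1 and 2 also under both WT libraries. Klf5 (99.71 Mb), a Kruppel-like factor of naive pluripotency, is distal but was at 173 and 196 in WT, 120, 125 and 82.6 in Evx1as KO and 160, 174 and 176 in EVX1 KO, low in all 3 Evx1as KO libraries.

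Of the 25 genes not lowered, 17 were among the 33 distal genes and 8 among the 289 proximal ones. In 24 of the 25, Evx1as KO 1 was above every WT and EVX1 KO library, and in 22 of the 25 Evx1as KO 2 and 3 were both below Evx1as KO 1. On the other chromosomes 3177 genes were not lowered, of which 1809 met the first rule and 936 the second. Most of the 25 genes had high values in the whole Evx1as KO group and, within that group, lower values in replicates 2 and 3. The class itself selects for high values in Evx1as KO 2 and 3, so a high group is partly built in. The 8 proximal ones were Anxa11, Ogdhl, Ndrg2, Zfp219, Sall2, Jph4 and 2 transcripts without gene names; they are named in full because they are few, a choice made after their values were seen.

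Ndrg2 (52.53 Mb), a member of the N-myc downstream regulated family whose promoter is printed above, was at 2.2 and 1.01 FPKM in WT, 15.3, 7.84 and 12.4 in Evx1as KO and 2.85, 2.64 and 1.09 in EVX1 KO. Sall2 (52.94 Mb), a zinc-finger transcription factor, was at 12 and 9.97 in WT, 38.6, 19.9 and 33.8 in Evx1as KO and 18, 13.6 and 12.8 in EVX1 KO. Jph4, a junctophilin that ties the endoplasmic reticulum to the plasma membrane, was at 4.73 and 4.9 in WT, 12, 8.29 and 11.2 in Evx1as KO and 2.08, 3.16 and 4.55 in EVX1 KO. In each of these 3 proximal genes the order within the Evx1as KO group was the same, with replicate 1 highest and replicate 2 lowest. Anxa11, a calcium-dependent membrane-binding annexin, was at 43.1 and 47.8 in WT, 101, 52.5 and 66.7 in Evx1as KO and 43, 44.2 and 45.1 in EVX1 KO, again with replicate 1 far above the pair.

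Among the distal genes, Ipo5 (121.33 Mb), a nuclear import receptor, was at 128 and 117 FPKM in WT, 223, 168 and 175 in Evx1as KO and 131, 144 and 151 in EVX1 KO. Abcc4 (118.99 Mb), an export pump for cyclic nucleotides and drugs, was at 2.71 and 3.08 in WT, 12.3, 7.99 and 10.9 in Evx1as KO and 3.1, 3.89 and 3.28 in EVX1 KO. Slain1 (104.08 Mb), a microtubule plus-end protein, was at 7.19 and 8.62 in WT, 28.5, 17.7 and 25 in Evx1as KO and 14.4, 10.6 and 10.1 in EVX1 KO. No Evx1as KO library overlapped WT or EVX1 KO for these genes, and replicate 1 was highest in each. Clybl (122.69 Mb), a mitochondrial lyase, and Pcca (123.11 Mb), a subunit of propionyl-CoA carboxylase, flank the Zic gene pair. Clybl was at 13.2 and 12.6 in WT, 44.5, 28.4 and 36.7 in Evx1as KO and 29.9, 24 and 17.2 in EVX1 KO. Pcca was at 8.24 and 5.86 in WT, 15.9, 11.5 and 12.7 in Evx1as KO and 8.66, 8.82 and 6.45 in EVX1 KO.

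The comparison of EVX1 KO with WT does not contain the libraries that chose the genes as an arm, and it asked which chromosome 14 genes differed in the cells labelled EVX1 KO. It was tested with limma on log2(FPKM + 1) over 13188 genes, with Benjamini-Hochberg adjustment and calls at an adjusted p under 0.05. Of the 322 genes 5 were higher and 1 was lower, next to backgrounds of 0.69% higher and 0.554% lower over all genes tested; these 5 are 1.55% of the set. At an unadjusted p under 0.05 the set held 76 genes (23.6%), close to the 21.2% over all genes. Small positive differences were common: 238 of 322 (73.9%) were above 0, against 52.9% over all genes, and the median log2 fold change was 0.15 against 0.02. Chromosome 1 was likewise high in EVX1 KO, with library medians relative to the gene means of 0.14, 0.13 and 0.12 against 0.03 and -0.10 in WT, so this shift was not seen on chromosome 14 alone. It was 0.15 in the proximal run and 0.18 in the distal end. The counts moved with the calls over all genes when a library was left out. Without EVX1 KO 2 limma gave 0 calls in either direction (43 genes at an unadjusted p under 0.05; backgrounds 0.0153% each way), and without EVX1 KO 3 there were 12 higher and 2 lower (backgrounds 2.17% and 2.74%). Without WT 1, WT 2 or EVX1 KO 1 there were 1, 2 and 2 higher (backgrounds 0.0382%, 0.13% and 0.206%) and 0 lower (0.00765%, 0.084% and 0.115%), with 40, 36 and 41 genes at an unadjusted p under 0.05. The Evx1as KO libraries share the fit's estimate of spread: without Evx1as KO 1 8 were higher (background 0.352%), without Evx1as KO 3 3 were (0.169%), and without Evx1as KO 2 and 3 3 were higher and 1 was lower (0.117% and 0.124%).

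Otx2 (49.28 Mb), a homeobox factor of the primed epiblast and forebrain, was the largest of the higher genes, at 12.2 and 9.53 FPKM in WT and 39, 35.6 and 32.8 in EVX1 KO. Its log2 fold change was 1.64 ± 0.16 (SE; limma adjusted p = 0.0124; higher in 3 of 3 libraries). Zic2 (122.88 Mb), a zinc-finger factor of epiblast and neural tissue, was at 22.3 and 24.6 in WT and 48.8, 46.7 and 46.2 in EVX1 KO, a log2 fold change of 0.98 ± 0.11 (limma adjusted p = 0.0124). Its neighbour Zic5 was at 6.24 and 9.32 in WT and 23.2, 17.9 and 15.1 in EVX1 KO, 1.17 ± 0.21 (limma adjusted p = 0.0397). Both groups were apart in each of these genes, and all 3 were also above WT in Evx1as KO, with 41.7, 31.3 and 44.7 FPKM for Otx2, 80.3, 64.2 and 77.5 for Zic2 and 29.8, 22.1 and 27.2 for Zic5. The edited groups share the WT libraries, so these are not separate evidence.

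Pck2 (56.16 Mb), the mitochondrial phosphoenolpyruvate carboxykinase, was at 4.75 and 4.58 FPKM in WT and 11.9, 12.4 and 10.8 in EVX1 KO, a log2 fold change of 1.16 ± 0.18 (limma adjusted p = 0.0276). Wapal (35.52 Mb), which releases cohesin from chromatin, was at 13 and 15 in WT and 24.5, 23.2 and 24.4 in EVX1 KO, 0.74 ± 0.14 (limma adjusted p = 0.0424). In Evx1as KO, Wapal followed the proximal lowering, at 16.2, 12 and 12. Tdh (64.12 Mb), threonine dehydrogenase, an enzyme on which mouse ES cells depend, was the lower gene, at 9.6 and 10.3 in WT and 1.73, 3.01 and 2.7 in EVX1 KO, a log2 fold change of -1.67 ± 0.24 (limma adjusted p = 0.0252). Evx1as KO held 5.39, 7.42 and 3.83 FPKM of Tdh. Of 16 alternative settings Otx2 passed in 15, Zic2 in 14, Pck2 in 11, Tdh in 10, Wapal in 6 and Zic5 in 5; without EVX1 KO 2 none of these 6 passed, but the log2 fold changes were 1.64, 0.99, 1.12, -1.79, 0.77 and 1.19, close to those with all libraries.

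The comparison of Evx1as KO with WT contains the libraries that chose the genes, so its counts are a description. By the same limma test 18 of the 322 genes were higher and 55 lower, next to backgrounds of 13% higher and 11.4% lower. In the proximal run 8 were higher and 54 lower, and in the distal end 10 were higher and 1 (Klf5) lower. Without Evx1as KO 2 and 3, an alternative added after the values were seen that leaves Evx1as KO 1 alone in its arm and assumes it varies like the other groups, 31 were higher and 11 lower (backgrounds 4.28% and 4.91%). Without Evx1as KO 1, 12 were higher and 117 lower (backgrounds 8.17% and 8.05%). Lower genes numbered 17 without WT 1, 26 without WT 2, 36 without Evx1as KO 2 and 30 without Evx1as KO 3, next to backgrounds of 4.69%, 5.49%, 10.8% and 6.64%, and higher genes 9 without WT 2 (background 5.95%). With each library's chromosome 14 median subtracted first, 51 were higher and 47 lower (backgrounds 13.6% and 11.6%). The median log2 fold change of the set was -0.22 with all libraries and 0.12 without Evx1as KO 2 and 3.

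**Figure D4:**
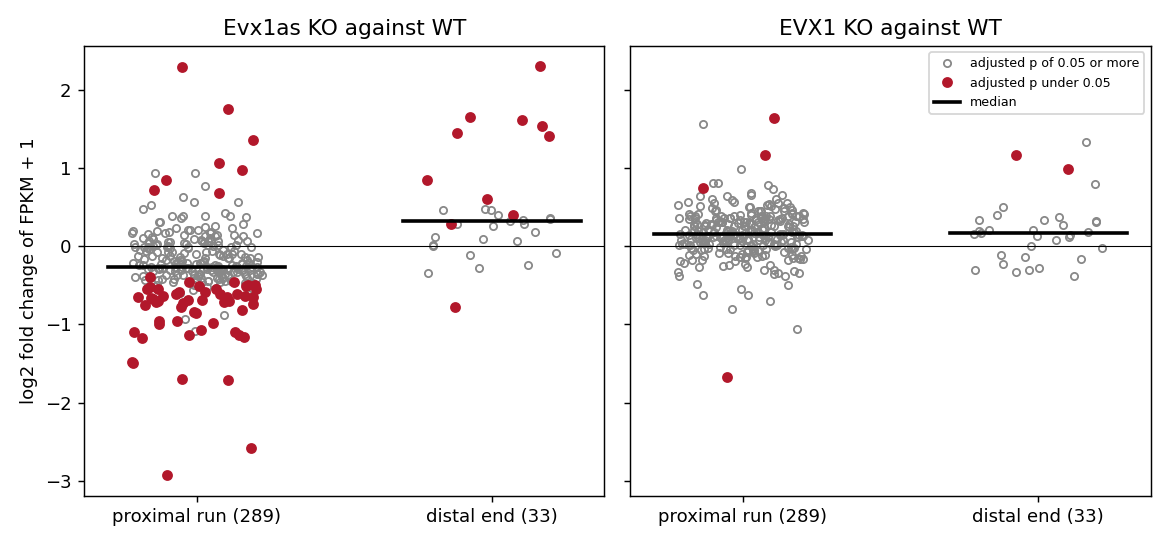
Log2 fold change of FPKM + 1 against WT (vertical axis) for genes of the proximal run (289) and distal end (33) of chromosome 14, Evx1as KO on the left and EVX1 KO on the right; filled points had a limma adjusted p under 0.05, bars are medians and horizontal spread within a column is only for legibility. For Evx1as KO the proximal median is -0.27 and the distal median 0.32; for EVX1 KO both lie above 0, at 0.15 and 0.18.

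The genes of this comparison with the largest differences were far from WT in all 3 Evx1as KO libraries. Lgals3 (48.00 Mb), a galactoside-binding lectin, was at 108 and 70.1 FPKM in WT, 14.4, 18.9 and 9.54 in Evx1as KO and 42.3, 44 and 38 in EVX1 KO, a log2 fold change of -2.58 ± 0.26 for Evx1as KO (SE). Gata4 had -2.93 ± 0.35 and Bmp4 -1.70 ± 0.31. Synpo2l, an actin-associated protein of muscle, was at 35.6 and 27.2 in WT, 9.15, 11.3 and 6.6 in Evx1as KO and 26.6, 31.6 and 18.8 in EVX1 KO. Bmp1, a protease that matures procollagen, was at 56.1 and 41.5 in WT, 17.4, 18.9 and 13.8 in Evx1as KO and 35.4, 39.5 and 35.8 in EVX1 KO. For Lgals3, Gata4, Synpo2l and Bmp1 the Evx1as KO 1 value lay between or below those of Evx1as KO 2 and 3, and with Evx1as KO 1 alone in its arm the log2 fold changes were -2.52, -3.16, -1.66 and -1.42. That of Bmp4 was then -1.40. Among the higher genes Ndrg2 had 2.30 ± 0.34, Otx2 1.75 ± 0.16, Zic5 1.65 ± 0.21, Zic2 1.61 ± 0.11 and Abcc4 1.53 ± 0.17, and with Evx1as KO 1 alone 2.68, 1.85, 1.83, 1.74 and 1.77. All 5 were higher in 3 of 3 Evx1as KO libraries than in both WT libraries. No p-values are given for these genes, since the comparison holds the libraries by which the set was chosen.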

How the data were processed

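The deposited table gives FPKM per gene symbol for the 8 libraries; per the submitters' processing notes, CASAVA and TopHat2 (2.0.11) were used and the builds mm9 and mm10 are named, without their roles, and the sources used here do not name the program that computed FPKM. Per the labels' protocols, libraries came from poly(A)-selected RNA with a stranded kit. Members of the set and all gene lists were chosen with earlier results of these data known. Library values were described as log2(FPKM + 1) minus the gene's mean over 8 libraries or minus the WT mean. Comparisons used limma 3.58.1 (R 4.3.3) on log2(FPKM + 1) with an intensity trend, all 3 groups in one fit and a filter of 1 FPKM or more in 2 or more libraries, two-sided; the script was tested on simulated data. FPKM keeps no read totals, so depth limits precision by an unknown amount and low genes are less certain.

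Named genes are: the 10 with the largest gap of Evx1as KO 2 and 3 below the other 6 libraries; the 10 not lowered that lie farthest above the median of the others; those called in each comparison without overlap, up to 5 each way; up to 4 per list by mean FPKM; and 3 on each side of the FPKM minimum. Symbols without a gene name, predicted genes and Rik names were passed over (1 and 2 in the first and second group). Members on chromosome 14 and another chromosome (2) were left out. The values of some genes under the naming rule are not reported here.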

Additional observations from a re-analysis of the deposited data

How the results depend on the processing

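The medians of the WT and Evx1as KO libraries moved by less than their spread under every alternative (pseudocount 0.1, minimum mean of 1 or 20 FPKM, median-ratio size factors, named genes only), from -0.39 to -0.32 in Evx1as KO 2 and from -0.39 to -0.31 in Evx1as KO 3. The EVX1 KO medians stayed positive: with a pseudocount of 0.1 EVX1 KO 1 was at 0.188 and EVX1 KO 3 at 0.172; with a minimum of 1 FPKM at 0.164 and 0.155; with a minimum of 20 FPKM at 0.156 and 0.187; with size factors EVX1 KO 2 was at 0.169 and EVX1 KO 3 at 0.172. With a minimum of 20 FPKM, which keeps 151 genes, 98 were below all other libraries and 10 not lowered; with a minimum of 1 FPKM, which keeps 476 genes, 41 were not lowered. Leaving out each of the other 6 libraries gave 191 to 213 below all and 25 to 36 not lowered. A rule over fewer libraries is easier to meet. The shares on the other chromosomes were not computed under these alternatives, so the changes in these counts are not read further.

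Calls for EVX1 KO against WT were few and moved with the settings, and the cause was not tested. Each count has the share over all genes tested in parentheses. For a range of counts the parentheses hold the range of shares, and the ends of the ranges need not come from the same fits. Higher genes numbered 8 with a 5 FPKM filter (1.38%), 2 with any value above 0 (0.0503%), 3 in a fit of the 2 groups only (0.126%), 3 without Evx1as KO 2 and 3 (0.117%), and 0 to 12 when each library was left out (0.0153% to 2.17%). Lower genes numbered 0 with any value above 0 (0.067%; limma; 55 members at an unadjusted p under 0.05 in either direction), 3 with the chromosome 14 median subtracted (0.637%) and 0 to 2 when each library was left out (0.00765% to 2.74%). For Evx1as KO against WT, higher genes numbered 51 with the chromosome 14 median subtracted (13.6%), 31 without Evx1as KO 2 and 3 (4.28%), and 9 to 26 when each library was left out (5.95% to 14%); lower genes numbered 31 with any value above 0 (5.03%), 11 without Evx1as KO 2 and 3 (4.91%), and 17 to 117 when each library was left out (4.69% to 12.2%). No named gene changed direction.

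Replicate numbers are shared between groups, and whether they pair the samples is not known here. Deviations from the group means correlated at -0.099 to 0.076 for same-numbered libraries and at -0.159 to 0.161 for differently numbered ones. Such deviations cancel within each small group, so these correlations cannot decide whether the samples are paired. With the replicate number as a block in the fit, 3 genes were higher (0.106%) and 0 lower (0.106%; limma; 102 at an unadjusted p under 0.05) for EVX1 KO, and 19 higher (10.5%) and 44 lower (9.02%) for Evx1as KO.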
